A study of Mus musculus with 2 samples.

Results

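The 9 genes described here are Bmp4, Bmpr1a, Bmpr2, Smad1, Smad5, Smad4, Id1, Id2 and Id3, a set that runs from a BMP ligand through its receptors and SMADs to Id target genes. They were chosen by name, and all 9 were found among the 22556 genes of the count table. The libraries hold polyadenylated RNA of iXist-ChrX-Dom cells, a female XX mouse embryonic stem cell (mESC) line from a Dom/129S x Cast cross. On the Dom/129S allele the endogenous Xist promoter was replaced with a TetOn promoter, and the cells were left untreated (0 h), so Xist was not induced. Both libraries therefore come from 1 group with 2 replicates, and no treated group is compared. Cells were grown in foetal calf serum with medium conditioned with LIF, and the fibroblast feeders were taken out by pre-plating.

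BMP ligands bind a complex of type I and type II serine/threonine kinase receptors, and the type I receptor phosphorylates SMAD1 and SMAD5. These join SMAD4, enter the nucleus and activate target genes, among which the Id genes are the best known. Id proteins are helix-loop-helix proteins without a DNA-binding region that capture E proteins. In mESCs grown with LIF, BMP signalling (for which serum is a source) and Id proteins are known to hold back neural differentiation.

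Replicate 1 held 23716499 counts and replicate 2 held 20275749. Nothing in the labels says whether the replicates were separate cultures, so the spread between them may be technical. Levels between genes are given as TPM (counts per kb of exon, scaled to 1000000 per library), and levels of 1 gene between libraries as CPM (counts per 1000000). The counts include reads in introns, whose share was not measured, and TPM by exonic length does not take them out. A mean TPM of at least 1 over the 2 libraries, the mark used below, was reached by 55.3% of all genes. One label calls the cells mESC to NPC (neural progenitors) and the titles call them ES cells, and this was checked against marker lists. Of 12 ES cell markers 11 reached 1 TPM, summed at 5155 and 4518 TPM, and Utf1 did not. These sums were carried by Tdgf1, Zfp42 and Nanog. The core ES cell gene Pou5f1 differed between the libraries, with 1129 and 142 counts (110 and 17.2 TPM), and Esrrb stood at 102 and 45.9 TPM. Both were picked after their values were seen. Whether what sets replicate 2 apart here has a part in the values of the 9 genes was not tested. Of 8 neural markers none reached 1 TPM (summed 1.32 and 0.975 TPM), and Sox1 and Olig2 had 0 counts. Of 12 fibroblast markers only Thy1 did, with 32 and 2 counts. The summed fibroblast list stood at 4.37 and 1.52 TPM, Lum had 0 counts and Col1a1 had 4 and 5. Of 8 primitive endoderm markers, 4 reached 1 TPM (summed 51.0 and 41.4 TPM), and of 7 mesoderm markers T and Eomes did (21.3 and 14.6 TPM), with Mesp1 at 0 counts. The part of other cell types in the levels below was not tested. In bulk RNA, fewer cells that express a gene and less RNA per cell cannot be told apart.

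The promoter windows of Id2 and Id3 are shown because these are the highest and the lowest of the 3 Id genes described here. Both are RefSeq sequences on GRCm38.p6, from 250 bases before to 50 bases after the start of the gene, and 7 of the 9 genes had such an entry. Capitals mark GC-rich elements known for SMAD1/5, which are GGCGCC (the same on both strands) and GGAGCC (read as GGCTCC on the other strand). They also mark the SMAD element CAGAC, which reads GTCTG on the other strand. The motifs did not overlap.
Id2 (chr12:25096043-25096342, minus strand): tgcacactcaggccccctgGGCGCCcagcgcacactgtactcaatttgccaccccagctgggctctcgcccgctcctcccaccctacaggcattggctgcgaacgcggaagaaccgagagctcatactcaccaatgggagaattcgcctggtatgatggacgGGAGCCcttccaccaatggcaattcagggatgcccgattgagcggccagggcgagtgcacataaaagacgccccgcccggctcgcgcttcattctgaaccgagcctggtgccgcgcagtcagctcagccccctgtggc
Id3 (chr4:136143572-136143871, plus strand): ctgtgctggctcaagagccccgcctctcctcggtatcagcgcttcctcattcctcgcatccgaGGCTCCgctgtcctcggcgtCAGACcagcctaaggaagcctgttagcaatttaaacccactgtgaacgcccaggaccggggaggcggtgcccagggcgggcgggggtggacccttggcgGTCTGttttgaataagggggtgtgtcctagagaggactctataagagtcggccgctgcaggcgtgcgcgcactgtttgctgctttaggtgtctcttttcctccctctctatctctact
The Id2 window held both GC-rich elements once and no CAGAC on either strand. The Id3 window held no GGCGCC, the other GC-rich element once and the SMAD element on both strands. The share of GC-rich elements in other promoters gives the background. Of all 32851 promoter windows of this length, 11.9% held GGCGCC, 30.8% held GGAGCC on either strand and 49.6% held CAGAC on either strand. These shares were not matched for GC content, which ran from 59.3% (Bmpr2) to 79.3% (Bmpr1a) in the windows of the 7 genes. GGCGCC was also present in the windows of Bmpr1a and Bmpr2 and in those of 2 of the 3 starts of Smad5, and absent from those of Bmp4 and Smad1. GGAGCC, on either strand, was present in the window of Bmp4 and in 1 of the 3 of Smad5, and absent from those of Bmpr1a, Bmpr2 and Smad1. CAGAC, on either strand, was present in 1 of the 3 of Smad5 and absent from those of the other 4 genes. A match is a run of letters and not a measured binding site.

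Levels of the 9 genes fell into 3 ranges. The common SMAD and the type I receptor gene stood near 150 TPM, 5 genes lay between 21.5 and 30.9 TPM, and Bmp4 and Id3 were lowest. The order by mean TPM was Smad4, Bmpr1a, Id2, Bmpr2, Smad5, Smad1, Id1, Bmp4 and Id3. Replicate ranges overlapped for the neighbours Smad4 and Bmpr1a, Id2 and Bmpr2, Bmpr2 and Smad5, and Smad1 and Id1. They did not overlap at the steps from Bmpr1a to Id2, from Smad5 to Smad1, from Id1 to Bmp4 and from Bmp4 to Id3. With 2 replicates a sign-flip test cannot give a two-sided p below 0.5, so none was run.

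**Figure D1:**
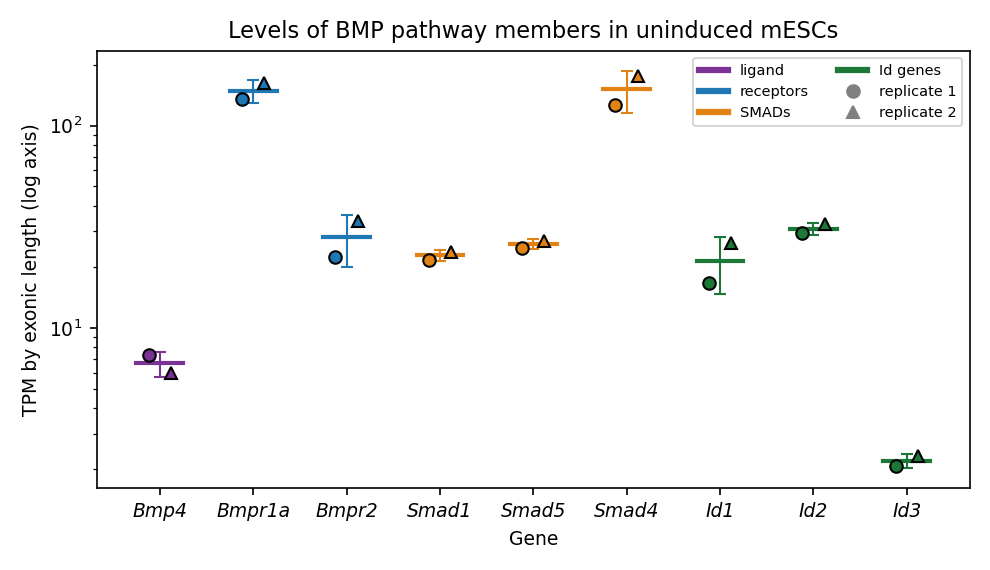
Level of each of the 9 genes as TPM by exonic length (log axis), with circles for replicate 1, triangles for replicate 2, a line for the mean and error bars for the SD (n = 2). Smad4 and Bmpr1a stand at 151 and 148 TPM, Id3 at 2.21 TPM, and 5 genes share the range from 21.5 to 30.9 TPM.

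Bmp4 (mm10 chromosome 14, 46383519 to 46390599, minus strand) encodes the secreted ligand. Its counts were 114 and 75 in replicates 1 and 2, or 7.35 and 6.01 TPM (mean 6.68 ± 0.945, SD, n = 2). It was the 1 gene of the 9 whose TPM was lower in replicate 2. The antisense gene Gm15217 overlaps its 3′ end, but the counting used strand and Gm15217 had 3 and 1 counts.

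Bmp4 was not the most abundant of the 16 BMP and GDF ligand genes listed. Gdf3, a BMP-related ligand of pluripotent cells, had 612 and 219 counts, or 38.3 and 17.0 TPM, and Gdf3 was above Bmp4 in both replicates. Which receptors the Gdf3 protein acts on was not measured here, so its share is not a share of BMP signal. Bmp4 took 15.3% ± 3.86 (SD, n = 2) of the summed TPM of 16 BMP and GDF ligand genes and Gdf3 took 58.4% ± 10.2. Bmp6 stood close to Bmp4, at 5.81 and 5.29 TPM, below Bmp4 in both libraries. By CPM, without a length, this order turned, with Bmp6 at 6.62 and 5.67 CPM and Bmp4 at 4.81 and 3.70 CPM. Bmp7 followed at 3.01 and 1.58 TPM. Bmp2, the closest relative of Bmp4, had 11 and 6 counts, or 0.345 ± 0.0936 TPM. Of the 15 other ligand genes listed, 4 reached 1 TPM and 5 had no count in either library. A count of 0 leaves room for 3 counts, that is for 0.126 CPM at the depth of replicate 1 and 0.148 CPM at that of replicate 2.

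Bmpr1a (chromosome 14, 34411067 to 34502546, minus strand) encodes the type I receptor that mESCs are known to use for BMP4. It had 6129 and 5919 counts, or 135 and 162 TPM (148 ± 19.2, SD, n = 2), and was above every other receptor gene of the list in both libraries. It took 90.2% ± 1.55 of the summed TPM of the 4 type I receptor genes. Acvr1, a type I receptor with affinity for several BMPs, followed at 11.6 and 10.5 TPM, and Bmpr1b, the closest paralog, at 4.32 and 5.00 TPM. Acvrl1, named here after its values were seen, had 17 and 0 counts.

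Bmpr2 (chromosome 1, 59764278 to 59878081, plus strand) encodes the type II receptor that is specific for BMPs. It had 2175 and 2638 counts, or 22.4 and 33.8 TPM (28.1 ± 8.06, SD, n = 2), so that replicate 2 was the higher. Bmpr1a exceeded Bmpr2 by a log2 ratio of 2.59 in replicate 1 and 2.26 in replicate 2 (2.42 ± 0.23). The mean of this ratio was 1.65 with the deposited span and 1.33 by CPM. Within the type II class, Bmpr2 was not the most abundant gene. Acvr2a, a type II receptor shared with Activin, stood at 43.6 and 60.8 TPM and took 61.6% ± 0.674 of the class, against 33.0% ± 2.19 for Bmpr2. By CPM this order turned, with Acvr2a below Bmpr2 by a log2 ratio of −0.28, since the exonic length of Bmpr2 is 12899 bases and that of Acvr2a 5686.

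The 3 SMAD genes differed in level between the receptor-regulated and the common SMADs. Smad1 (chromosome 8, 79338397 to 79399468, minus strand) had 846 and 745 counts, or 21.8 and 23.8 TPM (22.8 ± 1.46, SD, n = 2). Smad5 (chromosome 13, 56703009 to 56742378, plus strand) had 1342 and 1172 counts, or 24.9 and 27.0 TPM (26.0 ± 1.51). Their proportion hardly moved between libraries, with a log2 ratio of Smad1 over Smad5 of −0.19 in replicate 1 and −0.18 in replicate 2. Its direction depended on the gene model. With the longest transcript in place of all exons, which shortens Smad1 from 5173 to 3775 bases, the log2 ratio was 0.14. Smad9, the third SMAD of the BMP branch, had 69 and 67 counts and took 3.72% ± 0.258 of the summed TPM of the 3 genes.

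Smad4 (chromosome 18, 73639012 to 73703741, minus strand) encodes the partner that BMP and Activin SMADs share. It had 3394 and 3814 counts, or 126 and 176 TPM (151 ± 35.5, SD, n = 2). Smad4 exceeded the sum of Smad1 and Smad5 by a log2 ratio of 1.44 in replicate 1 and 1.79 in replicate 2. The mean of this ratio, 1.62 here, was 0.81 by CPM and 0.31 with the deposited span. Smad2 and Smad3 transmit Nodal and Activin signals. Smad2 stood at 58.8 and 64.3 TPM and Smad3 at 13.8 and 8.77 TPM, so that the BMP branch (Smad1, Smad5 and Smad9) was below the Activin branch by a log2 ratio of −0.59 and −0.47. This order held with the other 3 scalings (longest transcript, deposited span and CPM), with a mean log2 ratio of −0.90 to −0.23.

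**Figure D2:**
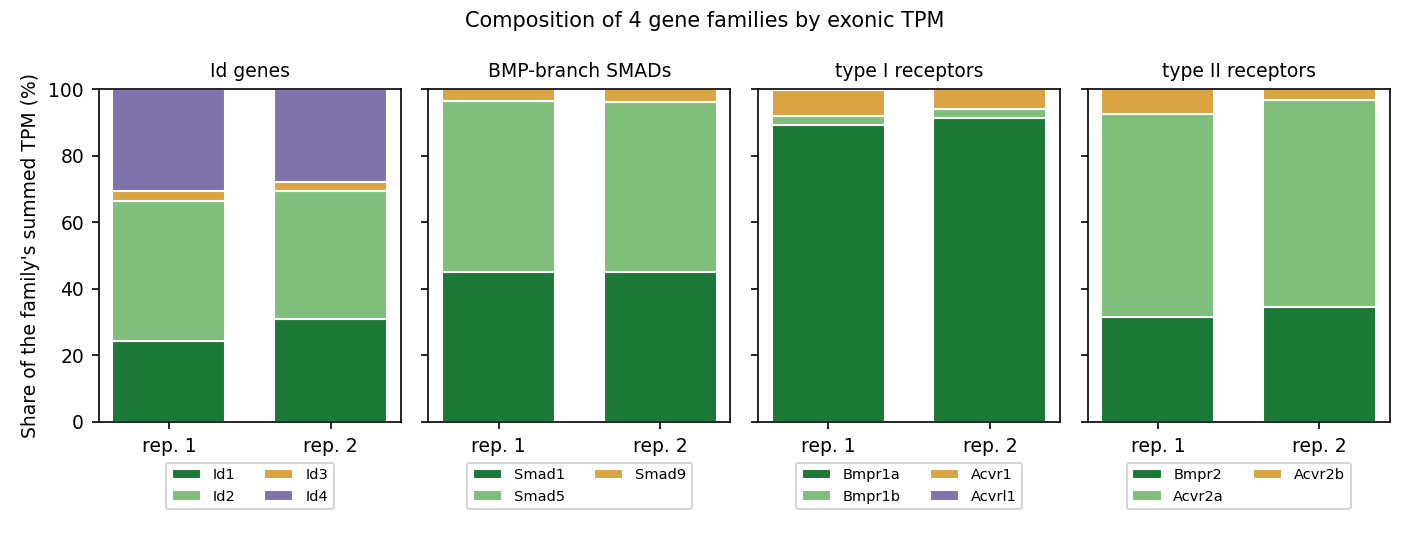
Share of each gene in the summed TPM (exonic length) of its family, one bar per replicate, for the Id genes, the BMP-branch SMADs and the type I and type II receptors. Bmpr1a fills 89.1 and 91.3% of the type I bar, Smad1 fills 45.0% of the SMAD bar in both replicates, and Id3 is the thinnest part of the Id bar at 3.01 and 2.75%.

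The Id genes were expressed at unequal levels. Id2 (chromosome 12, 25093798 to 25096092, minus strand) had 537 and 479 counts, or 29.3 and 32.5 TPM (30.9 ± 2.26, SD, n = 2). Id1 (chromosome 2, 152736250 to 152737410, plus strand), widely used as a readout of BMP signalling, had 146 and 184 counts, or 16.7 and 26.2 TPM (21.5 ± 6.71). Id3 (chromosome 4, 136143821 to 136145392, plus strand) had only 20 and 18 counts, or 2.08 and 2.33 TPM (2.21 ± 0.175). The 95% exact Poisson intervals of the Id3 counts ran from 12.2 to 30.9 and from 10.7 to 28.4, and cover counting error only.

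Id2 exceeded Id3 by 14.1-fold in replicate 1 and 13.9-fold in replicate 2. Id1 exceeded Id3 by 8.04-fold and 11.3-fold. The mean log2 ratio of Id2 over Id3 was 3.81 with exonic length, 4.12 with the longest transcript, 4.19 with the deposited span and 4.74 by CPM. Id4, the paralog that is not among the 9 genes, had 612 and 548 counts, or 21.1 and 23.5 TPM, within the range of Id1. Of the summed TPM of all 4 Id genes, Id2 took 40.4% ± 2.75 (SD, n = 2), Id4 29.2% ± 1.91, Id1 27.6% ± 4.84 and Id3 2.88% ± 0.178. By CPM Id4 led with 45.6%, before Id2 with 39.9%, Id1 with 13.0% and Id3 with 1.49%. The span counted for Id4 is shorter than its annotated exons (2611 against 3849 bases), and that of Id2 slightly so (2295 against 2438 bases). With lengths capped at the counted span, which was added after the data had been seen, Id4 stood at 37.0%, Id2 at 36.8% and Id1 at 23.7%.

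The E proteins Tcf3, Tcf4 and Tcf12 are the dimer partners that Id proteins capture. Tcf12 was the most abundant at 47.7 and 61.2 TPM, Tcf4 stood at 15.5 and 19.1 TPM and Tcf3 at 15.2 and 13.1 TPM. Summed, the 4 Id genes held 69.3 and 84.6 TPM and the 3 E proteins 78.3 and 93.3 TPM. The log2 ratio of Id genes over E proteins was −0.18 and −0.14. With the deposited span, which includes the long introns of the E protein genes, it turned to 4.51, and by CPM it was −1.77.

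Of the 68 other BMP pathway genes listed, 40 reached 1 TPM, which is 58.8% beside 55.3% of all genes. Their median was 2.49 TPM, against 1.85 TPM over all genes. Detection differed by role. All 5 co-receptors, all 3 inhibitory SMAD and pseudoreceptor genes and 11 of 12 intracellular regulators reached 1 TPM, against 4 of 15 secreted antagonists.

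**Figure D3:**
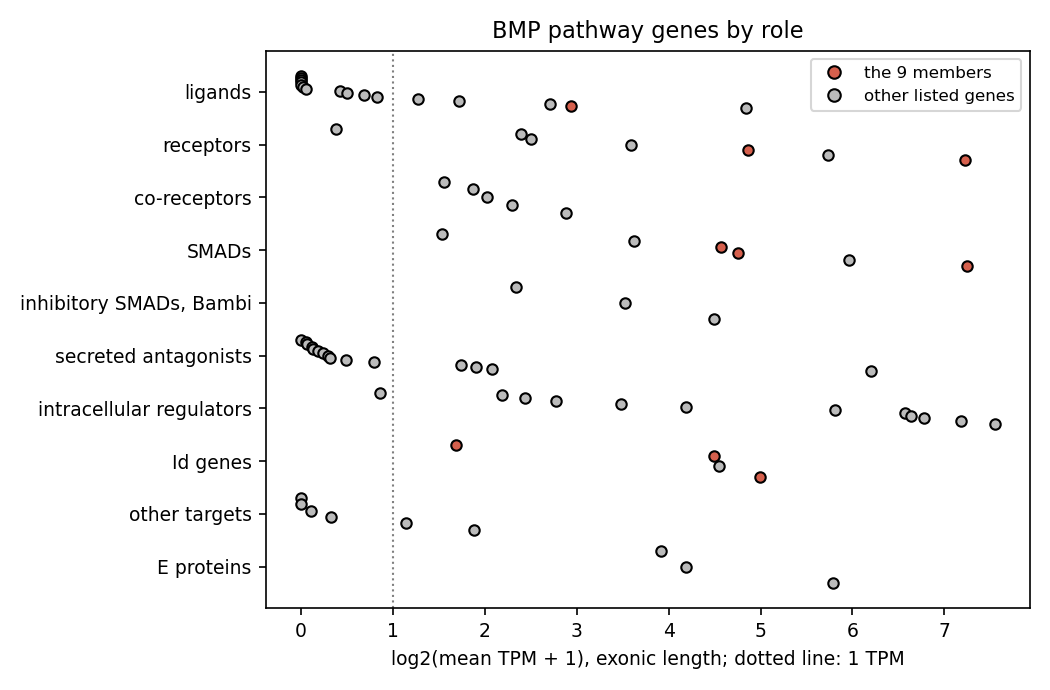
Mean level of the 9 genes (red) and of 68 other listed BMP pathway genes (grey) by role, as log2(mean TPM + 1) with exonic length, with a dotted line at 1 TPM. Ligands and secreted antagonists crowd near 0, while intracellular regulators reach as high as Smad4 and Bmpr1a.

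Among secreted antagonists, Twsg1, which binds BMPs together with chordin, stood apart at 62.0 and 82.8 TPM. Dand5, a Nodal and BMP antagonist, had 4.45 and 1.98 TPM and Fst, which encodes the Activin and BMP inhibitor follistatin, had 2.77 and 2.69 TPM. Among the inhibitors inside the cell or at its surface, Smad7 had 19.7 and 23.2 TPM. Bambi, a receptor without kinase activity, had 10.04 and 10.985 TPM and Smad6, which is selective for the BMP branch, 3.36 and 4.73 TPM. By exonic length each of these 3 genes was below Smad1 and Smad5 in both libraries. With the deposited span this order turned for Bambi, at a mean of 32.9 TPM against 24.7 for Smad5 and 10.1 for Smad1, and Smad7 at 17.2 TPM stood above Smad1.

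Of the intracellular regulators, 1 was above Smad4 in both libraries, namely Skil, a SMAD corepressor, at 156 and 217 TPM. Fkbp1a, whose product sits on type I receptors and keeps them inactive, stood at 141 and 148 TPM, above Smad4 in replicate 1 and below it in replicate 2. Smurf2, a ubiquitin ligase for SMADs and receptors, stood at 99.5 and 117 TPM. Co-receptors were low, with Eng at 8.38 and 4.40 TPM, Rgmb at 4.13 and 3.65 TPM and Tgfbr3 at 2.95 and 3.18 TPM.

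Of 6 listed target genes outside the Id family, 2 reached 1 TPM in the mean of the 2 libraries, and of these Dusp9 did not in replicate 2. Dusp9, an X-linked phosphatase gene that is known as a BMP4 target in mESCs, had 100 counts in replicate 1 and 8 in replicate 2, or 4.89 and 0.486 TPM. Gata2 had 32 and 28 counts, and Msx2, a homeobox target in many tissues, had 3 and 5.

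Agreement between the libraries was examined with a two-sided exact binomial test of each gene's 2 counts against the library totals, adjusted by Benjamini-Hochberg over 14536 genes. This test compares 2 libraries and not conditions, and it sets their difference against counting error alone, so a small p does not mean a difference beyond the usual spread between libraries. That spread, as the biological coefficient of variation edgeR estimated from the same 2 libraries over 12648 genes, was 0.277. Of the 9 genes 4 differed, which is 44.4%, beside 60.8% of all genes tested. All 4 were higher in replicate 2, a direction called for 15.1% of all genes, and none was lower, a direction called for 45.7%. They were Id1 with a log2 CPM ratio of 0.56 (adjusted p = 0.00109, exact binomial), Bmpr2 with 0.50 (1.24e-32), Smad4 with 0.39 (4.87e-30) and Bmpr1a with 0.18 (1.06e-10). With a difference of 1.5-fold also required, 0 of the 9 passed with library totals, beside 30.0% of all genes. With TMM factors, which are scaling factors that balance the bulk of genes, Bmpr2, Smad4 and Id1 passed it (25.4% of all genes), and with the GC trend described below Smad4 and Id1 did (15.2%).

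The other 5 genes did not pass. Their log2 CPM ratios were 0.04 for Smad1, 0.03 for Smad5, 0.06 for Id2, 0.08 for Id3 and −0.37 for Bmp4 (adjusted p = 0.119, exact binomial, for Bmp4 and higher for the rest). With 20 and 18 counts the ratio of Id3 was poorly determined. TMM factors raise every log2 ratio by 0.22, and with them 7 of the 9 genes passed, all higher in replicate 2, beside 57.8% of all genes (27.0% higher and 30.7% lower). The share of all calls that were higher in replicate 2 was 24.9% with library totals and 46.8% with TMM factors. Among the pathway genes, Dusp9 (log2 ratio −3.34, adjusted p = 1.24e-17, exact binomial) and Gdf3 (−1.25, adjusted p = 1.87e-30) were lower in replicate 2.

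The ratio between libraries moved with GC content across the transcriptome. Across the 9691 genes that had 50 counts or more in both libraries, Spearman's rho between the log2 ratio and GC content was −0.65, and the points share both libraries. CPM itself was lower at high GC content, and rho was −0.42 for replicate 1 and −0.52 for replicate 2. Among the 9 genes, GC content of the longest transcript was lowest for Bmpr2 at 41.0% and Bmpr1a at 41.3%, and highest for Id1 at 54.7% and Id3 at 55.6%.

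All 9 genes lay above the GC trend, as did 56.6% of the 9691 genes it was fitted on, which do not include Id3. Id1 lay farthest above, at 1.26 on the log2 scale, followed by Id3 at 0.81 and Smad4 at 0.80. The distance of Id3 rests on 20 and 18 counts and did not pass the test against the trend (adjusted p = 0.162, exact binomial). Compared with genes in a window of 2 percentage points of GC, Bmpr2, Smad1, Smad4, Id1 and Id3 were above the middle 50% and Bmp4, Bmpr1a, Smad5 and Id2 were inside it. With the GC trend as the expected ratio, 4 of the 9 genes passed the binomial test, namely Bmpr2, Smad1, Smad4 and Id1, beside 45.4% of all genes. Bmpr1a, at 0.03 above the trend, no longer passed (adjusted p = 0.35, exact binomial).

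**Figure D4:**
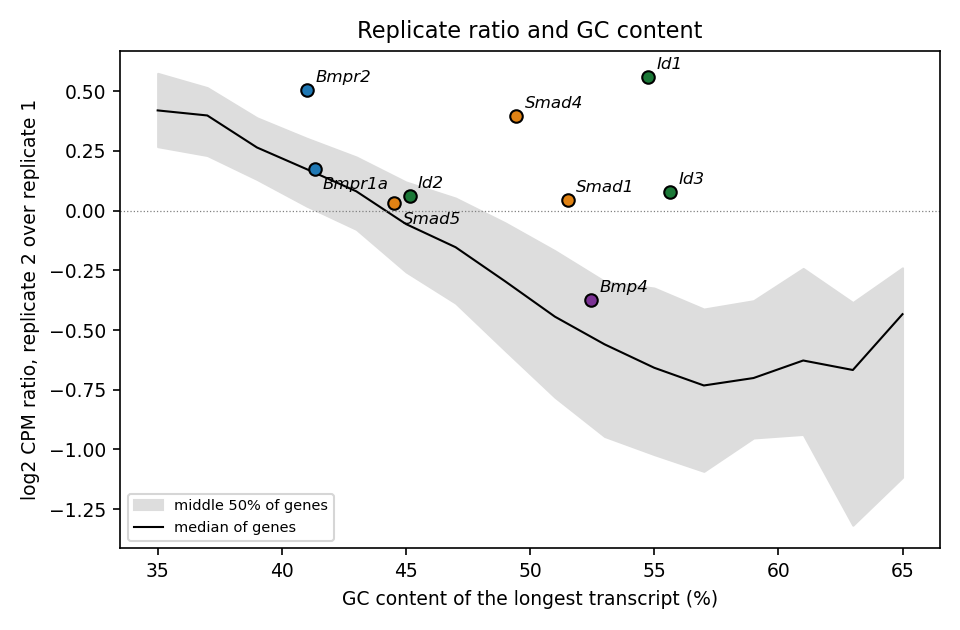
The log2 CPM ratio of replicate 2 over replicate 1 against the GC content of the longest transcript (%), with the 9 genes as points and the median (line) and middle 50% (band) of the genes that had 50 counts or more in both. Id1 lies at 0.56 where genes of like GC content have a median of −0.66, and Bmpr1a lies on the median line.

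Ranks within the transcriptome were also read against genes of like GC content, an alternative added after the data had been seen. Smad4 stood at percentile 93.1 of all genes and at percentile 94.6 of genes within 2 percentage points of its GC content. Bmpr1a stood at 93.0 and 84.7, Bmpr2 at 77.0 and 64.4, and Id2 at 78.03 and 65.97. Id1 moved the other way, from 74.1 to 86.3, and Id3 moved from 51.7 to 55.6. Each of these percentiles has its own reference genes, so they do not order the 9 genes against each other.

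The order of the 9 genes depended on the length used to scale the counts. The deposited length column spans introns. Exons make up 6.61% of that span for Bmpr1a, 5.52% for Smad4 and 8.47% for Smad1, but 81.3% for Id3 and nearly all of it for Id1. With span length Id2 led at 171 ± 19.1 TPM (SD, n = 2) and Id1 followed at 113 ± 39.2 TPM, above Bmpr1a at 51.2 ± 8.56 TPM and Smad4 at 43.7 ± 11.9 TPM. Id3 had the lowest mean of the 9 with each of the 4 scalings, at 9.36 TPM with span length and 0.866 CPM without a length. With span length its replicate range overlapped those of Smad1 and Bmp4.

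**Figure D5:**
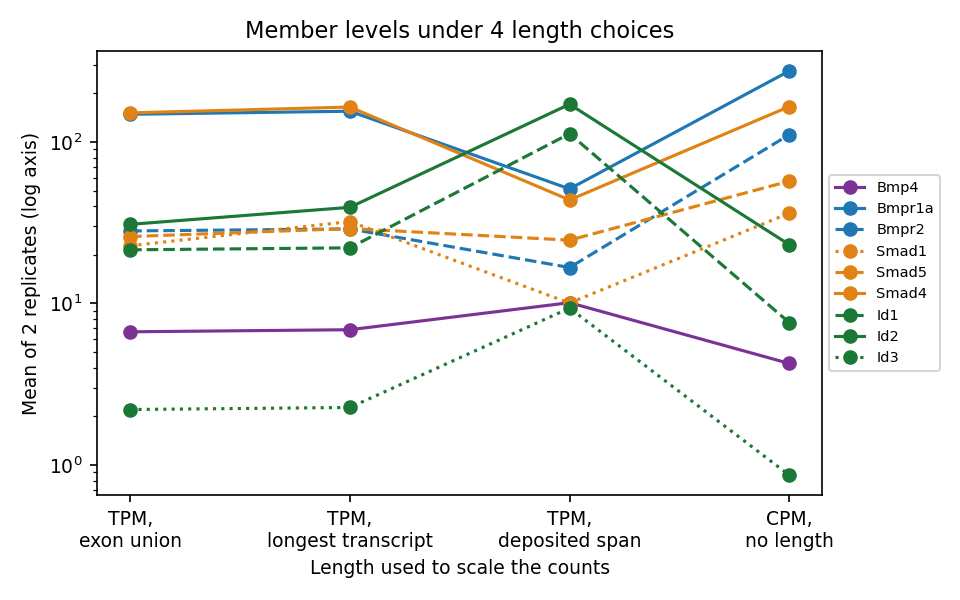
Mean of 2 replicates for each of the 9 genes (log axis) as TPM with exon union, longest transcript or deposited span, and as CPM without a length. Id2 and Id1 rise to 171 and 113 TPM with the deposited span, where Bmpr1a and Smad4 drop to 51.2 and 43.7 TPM, and Id3 is lowest throughout.

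Overlap with other genes was looked for, since shared sequence can move reads between genes. None of the 9 spans overlapped another gene on the same strand. The 50-base words of the longest transcript were matched on either strand. Words also found in transcripts of other genes made up 4.08% for Bmpr1a, 2.43% for Bmp4 and 0.417% for Id2. The genes matched by Bmp4 included its antisense gene Gm15217, which counting by strand keeps apart. The other 6 genes shared none, Smad1 and Smad5 included.

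The genes nearest to 3 of the 9 in log2(TPM + 1), measured by Euclidean distance over the 2 libraries, were taken as their likest by level. For Smad4, the highest, they were Zfp367 and Zfp326 at distances of 0.0122 and 0.0206. For Smad5, the fifth in order, they were Rsl1 and Vti1a, and for Id3, the lowest, Npas2 and Tnfaip8l3. With 2 libraries this likeness describes a level and no pattern across conditions.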

How the data were processed

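Per the file headers, the deposited counts are fragments that featureCounts 1.5.2 assigned in reverse-stranded mode to whole transcript spans on mm10, introns included, and were not normalized. The labels list Bowtie2 2.3.2 and STAR 2.4.2a without a role, and the alignment of these libraries is not given in the sources used here. The deposited length column, which has another unit (bases), holds the span with introns. Column names lack a letter b that the sample descriptions carry.

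TPM was computed here over the union of exons in GENCODE M21 (basic set, GRCm38, to which mm10 corresponds). Exons were matched for 21258 genes by symbol and 877 by an older symbol (98.1%), and unmatched genes held 0.193% and 0.194% of the counts. GC content is that of the longest transcript. Log2 ratios between libraries added 0.5 counts. The binomial test (scipy 1.17.1) took genes with at least 10 counts in total at an adjusted p of 0.05. TMM factors came from edgeR 4.0.16 and size factors from DESeq2 1.42.0 (R 4.3.3). The GC trend was a polynomial of degree 3. The binomial test and the GC trend were tested on simulated data with counting error alone.

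The genes and lists were chosen with earlier results of these data known. Genes named are the 9, their closest paralogs, the 3 highest of each role, Dusp9, and for the highest, middle and lowest of the 9 the 2 genes nearest in level. Marker genes and Gm15217 (for its overlap with Bmp4) were named outside this rule, after their values were seen.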

Additional observations from a re-analysis of the deposited data

How the results depend on the processing

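No paired analysis was possible because both libraries belong to 1 group. Apart from values without a replicate, 86 alternative values were computed. Of these 37 were within the spread between replicates (counts of genes within 1.5-fold), 46 moved further and 3 turned direction. Leaving out 1 of 2 replicates cannot move a mean beyond their SD, so it tests no stability of the levels and ratios. Levels of 8 of the 9 genes moved by more than the spread between replicates with the deposited span, and of 3 with the longest transcript (Smad1, Smad5 and Id2). For 8 genes the CPM lay outside the TPM spread, but CPM and TPM are different units, so this tests no stability. With TMM scaling none moved. TMM factors shift the 2 replicates in opposite directions, so their mean could hardly move, and this tests no stability either. Both sets of values are counted among the 86 above, so that tally is no measure of stability. The log2 ratio of Smad1 over Smad5 was 0.14 with the longest transcript, −1.29 with the deposited span and −0.66 with CPM. That of Bmpr1a over Bmpr2 was 1.65 with the deposited span and 1.33 with CPM. That of Acvr2a over Bmpr2 was −0.28 with CPM, and that of Id genes over E proteins was 4.51 with the deposited span and −1.77 with CPM. The share of Id1 in the Id genes was 13.0% with CPM. In each case the values differ by construction only in the length used.

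The number of pathway genes detected was 23 with at least 5 TPM. Of the 9 genes, 7 differed between libraries in the exact binomial test with TMM factors and 7 with DESeq2 size factors, beside 57.8% of all genes with either. Without a fold requirement, 4 of the 9 had an unadjusted p under 0.05 in that test with library totals. With a 1.5-fold difference also required, 0 passed with library totals, beside 4364 genes in all (30.0%). With that requirement, chosen for the other scalings after seeing the data, 3 passed with TMM factors beside 3694 (25.4%), 3 with size factors beside 3786 (26.0%) and 2 with the GC trend beside 2187 (15.2%). The share of all calls that were higher in replicate 2 was 54.8% with size factors and 52.1% with the GC trend. Depth limits Id3 most, with 20 and 18 counts.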

Other observations

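Of the 50 pathway genes tested beside the 9, 21 differed between the libraries in the exact binomial test, 8 higher and 13 lower in replicate 2, where 60.8% of all genes did. The following are outside the rule for named genes and were picked after their values were seen. Ctdsp1, a phosphatase that acts on SMADs, had 29 and 5 counts (log2 ratio −2.20, adjusted p = 0.000454, exact binomial). Ctdsp2 had 529 and 198 counts (−1.19, adjusted p = 2.3e-24), and Tob1, a negative regulator of BMP signalling, had 1280 and 1566 counts (0.52, adjusted p = 1.13e-20). The GC content of their longest transcripts was 56.4%, 55.6% and 45.7%. Measured from the GC trend, their log2 ratios were −1.45, −0.46 and 0.66.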
